A study of Mus musculus with 5 samples.

Results

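Heat shock proteins and their DnaJ partners were followed in mouse liver across 5 inbred strains. The genes were taken as all those with a probe set of their own whose symbol begins with Hspa, Hspb, Hspd, Hspe, Hsph, Hsp90, Dnaja, Dnajb or Dnajc, which gave 72 genes on 174 probe sets out of 18194 genes on the array. The strains were NZW/LacJ, RIIIS/J, FVB/NJ, BALB/CByJ and the reference strain C57BL/6J, and each was measured on 1 Affymetrix array hybridised with liver RNA pooled from 3 untreated males aged 10 weeks. No strain carried an engineered allele or received an agent per the labels. Per its design text, the strains were compared to follow up an expression locus (eQTL) that had already been identified. Each gene is given by the probe set with the highest mean, as an intensity on a linear scale, and a gene was counted as detected above an intensity of 8.48, a floor set at the 95th percentile of 84 chemosensory receptor probe sets, whose genes are silent in most tissues. With 1 array per strain no test between strains was possible and no value carries an error between animals.

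Molecular chaperones bind unfolded proteins and help them reach or regain their fold. Hsp70 proteins (Hspa genes) do so in cycles of ATP hydrolysis that are started by J-domain proteins (Dnaj genes) and reset by exchange factors such as the Hsp110 protein encoded by Hsph1. Hsp90 proteins act later on folded or nearly folded clients, and the small heat shock proteins (Hspb genes) hold unfolded proteins without ATP. Each of the cytosol, the endoplasmic reticulum (ER) and the mitochondrion has its own set. The transcription factor HSF1 drives the inducible cytosolic and mitochondrial genes through heat shock elements, and the ER set is driven by the unfolded protein response through ER stress elements. Hepatocytes secrete much plasma protein and have a large ER set, and several HSF1 targets in liver follow the daily rhythm of feeding and body temperature.

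Promoter sequences show how these sets differ in their letters. RefSeq windows on GRCm38.p6, each running from 250 bases before a gene's start to 50 after it, were held for 59 of the 72 genes in 76 windows. A heat shock element of 3 units, with GAA and TTC alternating and 2 bases of any kind between units, was found on either strand in the windows of 4 genes, Dnajb6, Hspd1, Hspe1 and Hsph1. These were 7.89% of the family's windows against 0.603% of all 32851 windows in the table. The match in Dnajb6, and that in Hsph1 after the start, each lie in overlapping windows of the gene. Hspd1 and Hspe1 share a stretch, so the share counts windows and not separate sites. The ER stress element, CCAAT and CCACG with 9 bases of any kind between them, lay in the windows of Hspa5, Hsp90b1 and Dnajc3, which is 3 of 12 windows of ER chaperones against 0.119% of all windows. The stretches below show the matches in capitals, since the levels of these genes are described next. In the stretch of Hspa5 and of Dnajc3 the capitals mark the ER stress element, and that of Hsp90b1 holds the element at both ends, the second on the other strand. Each is written 5′ to 3′ on the gene's own strand.
Hspa5, chr2:34772010-34772058, plus strand: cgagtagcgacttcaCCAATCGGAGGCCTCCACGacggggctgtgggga
Dnajc3, chr14:118937812-118937860, plus strand: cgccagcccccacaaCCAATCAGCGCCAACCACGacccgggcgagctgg
Hsp90b1, chr10:86705518-86705671, minus strand: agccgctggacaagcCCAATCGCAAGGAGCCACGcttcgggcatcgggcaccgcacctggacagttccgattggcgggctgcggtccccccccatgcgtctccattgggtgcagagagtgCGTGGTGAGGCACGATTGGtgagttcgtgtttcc

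Hspd1 and Hspe1, the genes of the mitochondrial chaperonin and its lid, start on opposite strands of the same short interval. The same 48 bases therefore stand in both windows, and each holds 2 overlapping matches to the element of 3 units, marked here in capitals on each gene's strand. The stretch of Dnajb6 holds 1 match.
Hspd1, chr1:55088044-55088091, minus strand: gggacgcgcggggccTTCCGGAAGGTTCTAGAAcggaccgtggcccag
Hspe1, chr1:55088044-55088091, plus strand: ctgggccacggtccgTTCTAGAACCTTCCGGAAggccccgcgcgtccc
Dnajb6, chr5:29735837-29735879, plus strand: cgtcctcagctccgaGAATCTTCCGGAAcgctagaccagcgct

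The 3 genes with the widest spread between strains, Hspa1b, Hspb1 and Hspb6, had in these windows only the shorter form of 2 units (GAA and TTC in either order, 2 bases apart), which 15.1% of all windows hold. This shorter form was in 58.8% of the windows of heat-inducible genes. By gene it was in 9 of the 11 heat-inducible genes that had a window, against 4587 of all 27025 genes with windows. The capitals below mark it.
Hspa1b, chr17:34959320-34959357, minus strand: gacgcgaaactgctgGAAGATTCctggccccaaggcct
Hspb1, chr5:135887787-135887844, plus strand: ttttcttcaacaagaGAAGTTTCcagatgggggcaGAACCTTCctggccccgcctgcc
Hspb6, chr7:30553166-30553203, plus strand: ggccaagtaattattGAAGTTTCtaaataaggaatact
A match is a description of the reference strain's letters, and no sequence of the other strains was used.

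Markers of other tissues were high on 2 of the arrays, and the results that rest on them are also given without them. All 7 hepatocyte markers with a probe set were detected on every array, with a summed intensity of 264399 to 303167. On the RIIIS/J array all 4 acinar cell genes of the exocrine pancreas with a probe set were at least 2-fold above every other strain, with a summed intensity of 39938 against 695 to 1277, and Ctrb1, a digestive protease gene, read 7824 there against 4.31 to 4.74. On the FVB/NJ array 6 of 7 B cell markers were apart in the same way, with a sum of 26403 against 332 to 882, and the erythrocyte gene Slc4a1 read 1096 against 13.0 to 13.3. The ratio of 3′ to 5′ actin control signals, a measure of RNA and labelling quality, was highest on the FVB/NJ array at 4.98 and lowest on the RIIIS/J array at 2.76, with 3.73 to 3.93 on the others. The same ratio for the Gapdh control differed far less, from 0.90 on the RIIIS/J array to 1.01 on the FVB/NJ array. The FVB/NJ and RIIIS/J arrays hold 6 of the 7 genes described below as apart. The part of RNA and labelling quality in their values was not tested. Clock genes that peak near dusk also differed, summing to 10415 to 15924 in C57BL/6J, BALB/CByJ and FVB/NJ, 3576 in NZW/LacJ and 1279 in RIIIS/J. Those that peak near dawn summed to 1462 in NZW/LacJ and 1765 in RIIIS/J against 463 to 528 elsewhere. What part the clock has in the values below was not tested. In bulk liver RNA, fewer cells of a type and less RNA per cell cannot be told apart.

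Of the 72 genes, 58 exceeded the floor on some array and 55 did so on all 5. Undetected on every array were the testis genes Dnajb3, Dnajb7, Dnajb8, Dnajb13, Hspa1l and Hspb9, the muscle genes Hspb2, Hspb3 and Hspb7, and Dnajc5b, Dnajc5g, Dnajc27, Hspa12b and Hspbap1. Hspa1a and Hspa2 passed only in FVB/NJ, at 14.9 and 15.5, and Dnajc6 only in C57BL/6J at 8.56. The skeletal muscle markers, of a tissue in which several small heat shock proteins are abundant, read at most 11.9.

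Among the 58 detected genes 7 stood at least 2-fold above or below the nearest other strain in some strain, which is 12.1%, against 12% of all 11872 detected genes. The highest strain was at least 2-fold above the lowest for 19 genes, or 32.8%, against 30.9% of genes within the family's range of mean level. Both shares are near the background. Without FVB/NJ alone 4 of 56 genes were apart and 13 had a 2-fold range, against 7.59% and 20.4% of all genes. Without RIIIS/J alone the counts were 5 and 14 of 58, against 11.7% and 23.6%. Without the FVB/NJ and RIIIS/J arrays 2 of 56 genes were apart, against 7.61% of all genes in the same setting. These were Hspb6, still low in NZW/LacJ, and Hspa1b. Hspa1b was then apart in C57BL/6J, a different call from the one in RIIIS/J, which had been left out. In this setting 5 of 56 genes had a range of at least 2-fold against 13% of all genes. Those 5 were Hspa1b, Hspb6, Hsph1, Dnajb9 and Dnajb2. No member was apart in either direction in C57BL/6J (background 0.489% higher and 0.421% lower) or BALB/CByJ (0.8% and 0.438%), and none was on the high side in NZW/LacJ (0.758%).

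**Figure D1:**
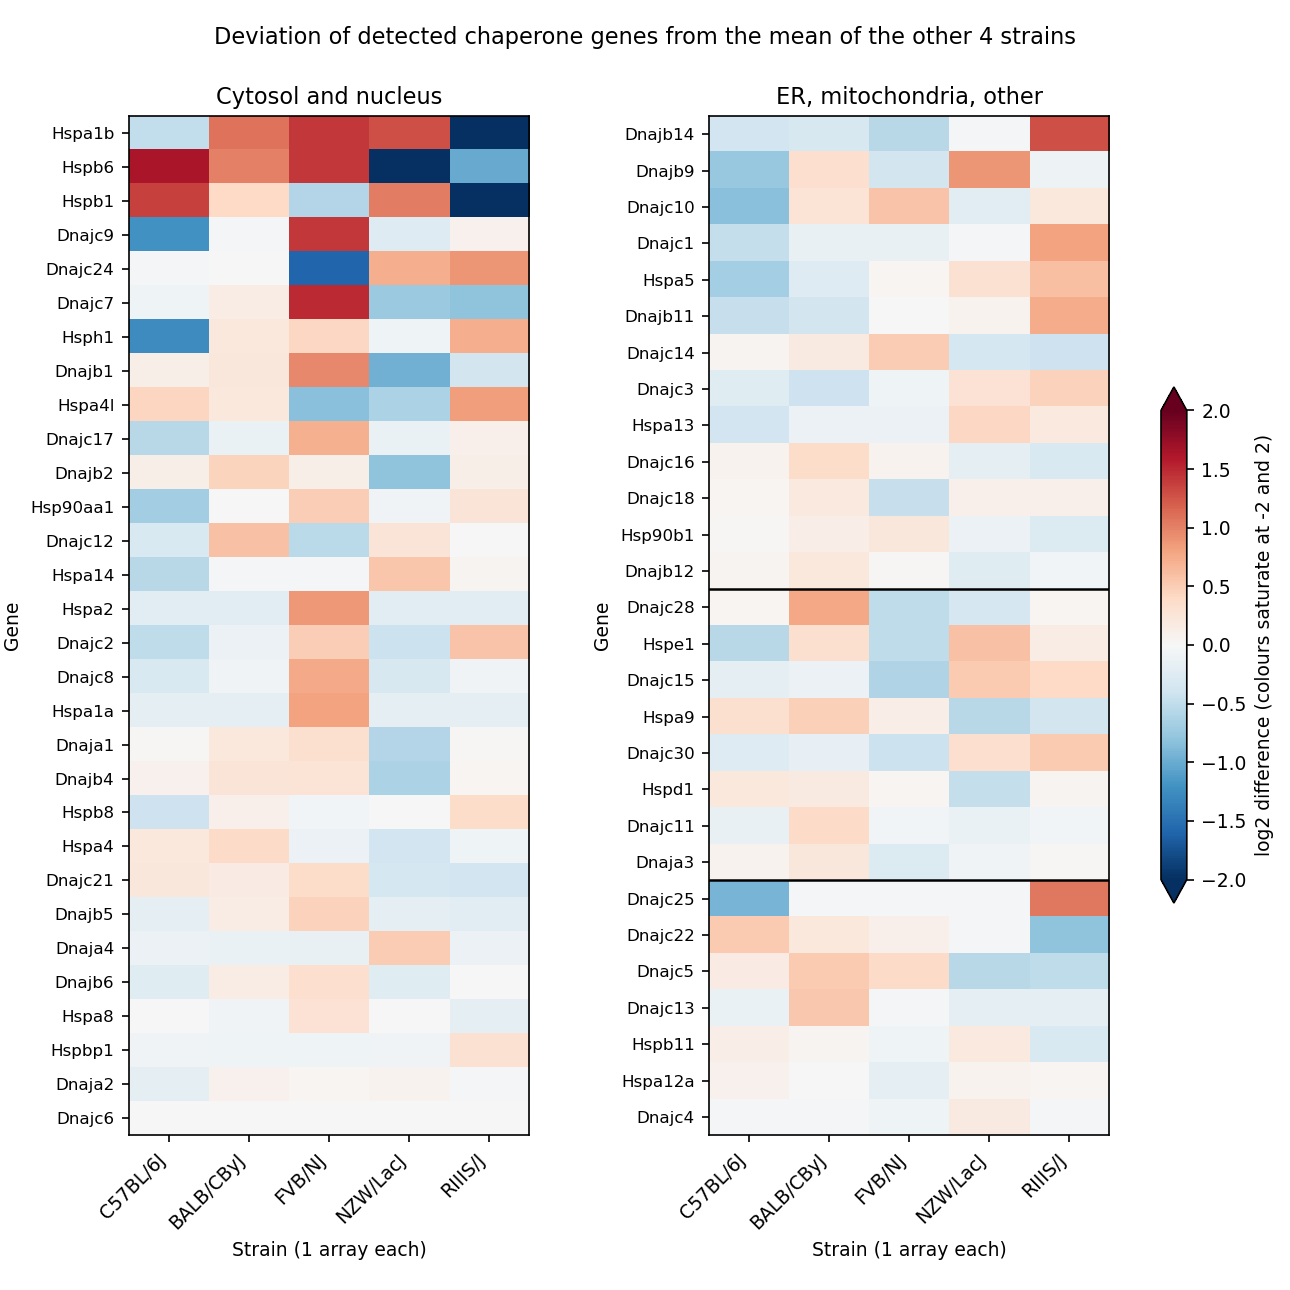
Colour shows, for each of the 58 detected genes (rows) and each strain (columns, 1 array each), the log2 intensity minus the mean of the other 4 strains, with black lines between ER, mitochondrial and other genes in the right panel. The deepest blue cells are Hspa1b and Hspb1 in RIIIS/J and Hspb6 in NZW/LacJ.

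Hspa1b, which encodes the classical heat-inducible Hsp70 of the cytosol, had the widest range of the family at 13.7-fold. It read 644 in C57BL/6J, 1540.0 in BALB/CByJ, 1851 in FVB/NJ, 1718 in NZW/LacJ and 135 in RIIIS/J. RIIIS/J was thus 4.77-fold below the nearest strain, C57BL/6J, and the other 3 strains lay close together at the top. Its other probe sets also had RIIIS/J lowest and C57BL/6J next, at 101 in RIIIS/J against 285 to 775 and at 28.6 against 83.9 to 343. Hspa1a and Hspa1b are nearly identical copies, so their signals may be mixed, and the probe set named for Hspa1a read 5.71 to 5.82 outside FVB/NJ. Without RIIIS/J the range of Hspa1b was 2.87-fold, from C57BL/6J to FVB/NJ.

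Hspb1, the small heat shock protein Hsp25, was also lowest in RIIIS/J. It read 306 in C57BL/6J, 179 in BALB/CByJ, 104 in FVB/NJ, 254 in NZW/LacJ and 42.6 in RIIIS/J, 2.44-fold below the nearest. Its second probe set kept that order, from 309 in C57BL/6J through 224, 104 and 55.9 to 10.7 in RIIIS/J. Both probe sets are of kinds that can bind several transcripts (suffix _a and _x), and Hspb1 has no other. With that array left out the range of Hspb1 was 2.95-fold in place of 7.19-fold, and no strain was apart. The order differed from that of Hspa1b in that FVB/NJ, the highest strain for Hspa1b, was the second lowest for Hspb1. These were the 2 of 58 genes apart on the low side in RIIIS/J, where 1.73% of all detected genes were. RIIIS/J was also the array with the lowest sum of dusk-phase clock genes. NZW/LacJ, with the next lowest clock sum, was the second highest strain for both genes. The part of the clock in these values was not tested.

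Hspb6, a small heat shock protein known mainly from muscle, was lowest in NZW/LacJ. It read 219 in C57BL/6J, 154 in BALB/CByJ, 194 in FVB/NJ, 16.3 in NZW/LacJ and 50.5 in RIIIS/J. NZW/LacJ was 3.09-fold below RIIIS/J, and both were well below the other 3. Both also had the lowest sums of dusk-phase clock genes, and the part of the clock was not tested. Hspb6 was the 1 gene apart on the low side in NZW/LacJ (background 0.724%). The range of 13.4-fold was the same without FVB/NJ and RIIIS/J, and the gene had a single probe set, so no second reading exists. The 7 smooth muscle and fibroblast markers, of which 6 were above the floor on each array, summed to 1143 in NZW/LacJ and 759 in RIIIS/J against 1695 to 3475 elsewhere. These are the 2 strains in which Hspb6 was low, and RIIIS/J is the strain in which Hspb1 was low, and the part of these cells was not tested. Among them the fibroblast collagen gene Col3a1 read 495 in NZW/LacJ and 304 in RIIIS/J against 975 to 1191. The smooth muscle actin gene Acta2 read 76.9 in both, beside 58.1 in BALB/CByJ and 77.9 in C57BL/6J. Vim and Tagln read 488 and 50.9 in NZW/LacJ, above 434 and 34.6 in BALB/CByJ. The median log2 difference of the 7 markers was -0.76 in RIIIS/J, -0.17 in NZW/LacJ, -0.07 in BALB/CByJ, 0.02 in C57BL/6J and 0.90 in FVB/NJ. Hspb8, a small heat shock protein that works with the exchange factor Bag3, was level by comparison, at 1277 in C57BL/6J, 1707 in BALB/CByJ, 1564 in FVB/NJ, 1594 in NZW/LacJ and 1973 in RIIIS/J.

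Among the other cytosolic genes of the heat-inducible list, Hsph1 and Hsp90aa1 were lowest in C57BL/6J. Hsph1, the Hsp110 exchange factor, read 357 in C57BL/6J, 811 in BALB/CByJ, 901 in FVB/NJ, 684 in NZW/LacJ and 1074 in RIIIS/J. Hsp90aa1, the inducible cytosolic Hsp90, read 2957, 4342, 5703, 4186 and 5007 in the same order of strains. C57BL/6J was the lowest strain for both, 1.92-fold and 1.42-fold below the nearest, and it was the lowest on every further detected probe set of both genes. For Hsph1 the second probe set read 180.5 in C57BL/6J against 294 to 454. Hspa8, the mostly constitutive cytosolic Hsp70 that is counted here in the heat-inducible list, read 16271, 15652, 19222, 16271 and 14601. RIIIS/J was its lowest strain, as for Hspa1b and Hspb1, but its range was only 1.32-fold, and 2 further bright probe sets of it had their lowest value in C57BL/6J, with 6075 against 8990.1 to 9767 and 6142 against 7406 to 9058.

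**Figure D2:**
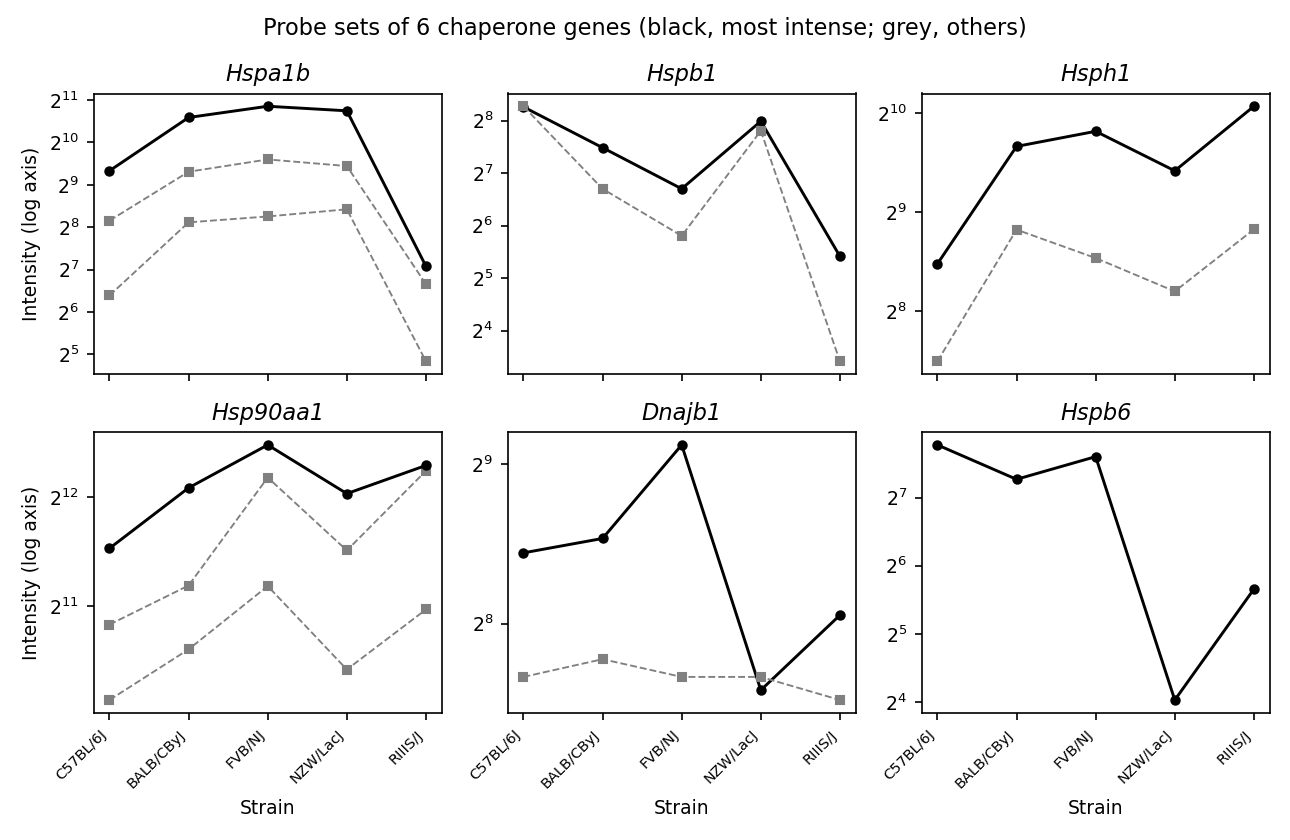
Intensity (log axis) of each detected probe set of 6 cytosolic chaperone genes in the 5 strains, black for the most intense and grey for the others, with lines joining the values of 1 probe set. RIIIS/J is lowest on all probe sets of Hspa1b and Hspb1, C57BL/6J on all of Hsph1 and Hsp90aa1, and NZW/LacJ on the single probe set of Hspb6.

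The J-domain partners Dnajb1, Dnaja1, Dnajb4 and Dnajb2 of the cytosolic Hsp70 were each lowest in NZW/LacJ on their most intense probe set. Dnajb1, the main inducible Hsp40, read 348 in C57BL/6J, 371 in BALB/CByJ, 557 in FVB/NJ, 192 in NZW/LacJ and 266 in RIIIS/J. A second, dimmer probe set of Dnajb1 read 184 to 219 and did not repeat this. Dnaja1, a farnesylated type I J protein, read 3059, 3368, 3601, 2174 and 3059 in that order of strains. Its further probe sets differed, since 1 had C57BL/6J lowest at 1773 with NZW/LacJ at 2200, and the other had NZW/LacJ lowest at 1557 with C57BL/6J at 1639. Dnajb4 read 634, 698, 704, 427 and 619, and its second probe set was lowest in NZW/LacJ too, at 114 against 185 to 263. Dnajb2, a J protein with ubiquitin-binding motifs, read 324 in NZW/LacJ against 543 to 652. By contrast Dnaja2, a further type I J protein, was nearly level at 2757, 3188, 3108, 3163 and 2990.1. Dnaja4, a much dimmer cytosolic J protein, was instead highest in NZW/LacJ, at 36.3 against 25.1 to 25.6. Another probe set of Dnaja4 had NZW/LacJ highest too, at 38.9 against 17.1 to 28.6. Dnajb6, a J protein that holds back aggregation, read 1828, 2262, 2505, 1833 and 2089, with C57BL/6J and NZW/LacJ close together at the bottom. The Hsp110 relative Hspa4l, the remaining heat-inducible gene, read 87.1, 77.4, 43.3, 48.4 and 109 and was highest in RIIIS/J.

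FVB/NJ held 3 of the 7 genes apart, and all are cytosolic or nuclear J proteins. Dnajc9, a histone chaperone used in DNA replication, read 128 in FVB/NJ against 29.9 in C57BL/6J, 57.3 in BALB/CByJ, 50.5 in NZW/LacJ and 61.4 in RIIIS/J. Its distance from the nearest strain was 2.09-fold, and it was no longer apart after quantile normalization or after centring each array on its median. Dnajc7, which binds Hsp70 and Hsp90 through TPR repeats, read 824 against 342, 389, 238 and 229.9 in that order. These 2 of 58 genes (3.45%) on the high side stand beside 5.81% of all genes. Dnajc24, which serves the synthesis of diphthamide on elongation factor 2, read 31.3 in FVB/NJ against 74.4, 76.0, 113 and 123, while 0.539% of all genes were apart on that side, and its second probe set was lowest there by less, at 18.2 against 26.0 to 50.5. Further nuclear J proteins were also highest in FVB/NJ by smaller steps. Dnajc8, a splicing-associated J protein, read 739 there against 406 to 469, and Dnajc17, a J protein with an RNA recognition motif, read 481 against 238 to 342. Dnajc2, a ribosome-associated J protein, was instead highest in RIIIS/J at 393, next to 376 in FVB/NJ, while a second probe set had FVB/NJ highest at 287. Without the FVB/NJ array the range of Dnajc9 was 2.05-fold, that of Dnajc7 1.69-fold and that of Dnajc24 1.66-fold. On the FVB/NJ array cell division genes summed to 2976 against 1155 to 1379, beside the B cell sums given above, and their part in the FVB/NJ values was not tested.

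By compartment, the 30 detected cytosolic and nuclear genes had a median log2 difference from the mean of the other strains of 0.33 in FVB/NJ. There 20 of 30 were above 0, against 45.2% of all detected genes. The median was -0.15 in C57BL/6J, 0.13 in BALB/CByJ, -0.20 in NZW/LacJ and -0.01 in RIIIS/J. Over all detected genes these medians lay between -0.02 and 0.00. FVB/NJ was the single highest strain for 15 of the 30 cytosolic and nuclear genes, for 3 of 13 ER genes and for 0 of 8 mitochondrial genes, and for 2795 of all 11872 detected genes (23.5%). Over the 27 cytosolic and nuclear genes above the floor on all arrays, which leaves out Hspa1a and Hspa2, it was the highest for 13. Without FVB/NJ the cytosolic and nuclear medians were 0.25 in BALB/CByJ, -0.11 in C57BL/6J, -0.06 in NZW/LacJ and 0.07 in RIIIS/J. The 13 detected heat-inducible genes had medians of 0.29 in FVB/NJ, 0.21 in BALB/CByJ, 0.03 in RIIIS/J, -0.01 in C57BL/6J and -0.09 in NZW/LacJ. For single genes, the 2 most intense detected probe sets per gene gave deviations with a median distance of 0.22 log2 over 5274 genes and 0.19 over 41 genes of this family, and no such error is known for the median of a list.

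**Figure D3:**
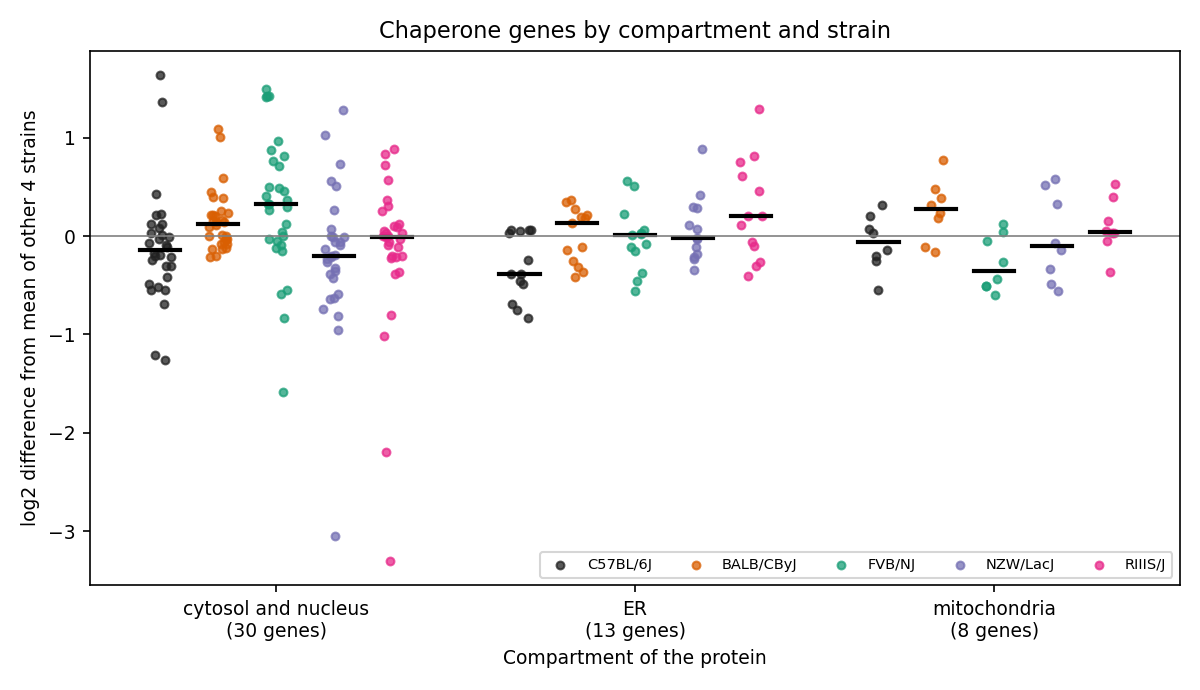
Points show the log2 difference of each detected gene from the mean of the other 4 strains, by compartment and strain, and black bars the medians. The FVB/NJ bar is at 0.33 for the cytosol and nucleus and at -0.35 for mitochondria, and the C57BL/6J bar for the ER is at -0.38.

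The ER set had its lowest median in C57BL/6J, and part of its genes were highest in RIIIS/J. Hspa5, the ER Hsp70 known as BiP, read 13774 in C57BL/6J, 17484 in BALB/CByJ, 20547 in FVB/NJ, 23777 in NZW/LacJ and 28211 in RIIIS/J. C57BL/6J was lowest by 1.27-fold, and a second probe set was lowest there as well, at 8889.7 against 12569.8 to 17908, with its highest value in NZW/LacJ. Dnajb11, a lumenal BiP partner, read 805, 847, 1047, 1078 and 1572 in the same order of strains. Dnajc1, a membrane-bound BiP partner, read 848, 1022, 1018, 1094 and 1737. Dnajc3, an inhibitor of the stress kinase PERK that also acts as a BiP partner, read 2218, 2012, 2432, 2969 and 3280.2 on its most intense probe set.

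On their most intense probe sets these 4 genes shared RIIIS/J as the top strain. The range of Hspa5 was 2.05-fold over 5 strains and 1.73-fold without RIIIS/J. For Dnajb11 it was 1.95-fold and 1.34-fold, and for Dnajc1 2.05-fold and 1.29-fold. Acinar cells of the pancreas are rich in ER, and their markers were high on this array alone, with the sums given above, and their part in the RIIIS/J values was not tested. Dnajc3 had 4 further detected probe sets, and RIIIS/J was highest on 1 of them, at 667 against 408 to 527. On the brightest of them RIIIS/J was the lowest, at 1772 against 1794 to 2147. The dimmer detected probe sets of Dnajc1 were split between RIIIS/J and NZW/LacJ as the highest strain.

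Dnajb14, a J protein of the ER membrane, was the 1 gene apart on the high side in RIIIS/J (background 0.969%). It read 272 there against 108 in C57BL/6J, 112 in BALB/CByJ, 97.4 in FVB/NJ and 131 in NZW/LacJ. Its second probe set read 63.6 in RIIIS/J, between 53.0 and 74.7 in the other strains, so the call rests on 1 probe set. Without RIIIS/J the range of Dnajb14 was 1.34-fold.

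Other ER genes had other orders. Dnajb9, a BiP partner that represses the stress sensor IRE1 and is strongly induced in ER stress, read 1365 in C57BL/6J, 2502 in BALB/CByJ, 1685 in FVB/NJ, 3384 in NZW/LacJ and 1957 in RIIIS/J. Its range of 2.48-fold was the same without FVB/NJ and RIIIS/J. Dnajc10, a disulfide reductase with a J domain, read 172 in C57BL/6J against 318, 373, 242 and 305, and its second probe set repeated the low C57BL/6J value at 178 against 196 to 378. Hsp90b1, the ER Hsp90 known as GRP94, was nearly level at 14160.1, 14993, 15767, 13114 and 12031. RIIIS/J was its lowest strain, yet on its second probe set RIIIS/J was the highest, at 6047 against 4458 to 5358. Hsp90b1 and Hspa5 both hold the ER stress element shown above, and their most intense probe sets put RIIIS/J at opposite ends.

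Hspa13, an ER-associated Hsp70 that lacks the usual substrate domain, differed between its probe sets. The most intense read 816 in C57BL/6J, 946 in BALB/CByJ and in FVB/NJ, 1269.6 in NZW/LacJ and 1128 in RIIIS/J. A second read 347, 359, 453, 1479.6 and 2167, and a dimmer one read 28.8, 28.0, 34.4, 169 and 242. On these the NZW/LacJ and RIIIS/J values were several times those of the other 3 strains, whereas the last was level at 115 to 131. NZW/LacJ and RIIIS/J had the lowest dusk-phase clock sums, and the part of the clock was not tested. The remaining ER members Dnajb12, Dnajc14, Dnajc16 and Dnajc18 varied by 1.28-fold to 1.67-fold.

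**Figure D4:**
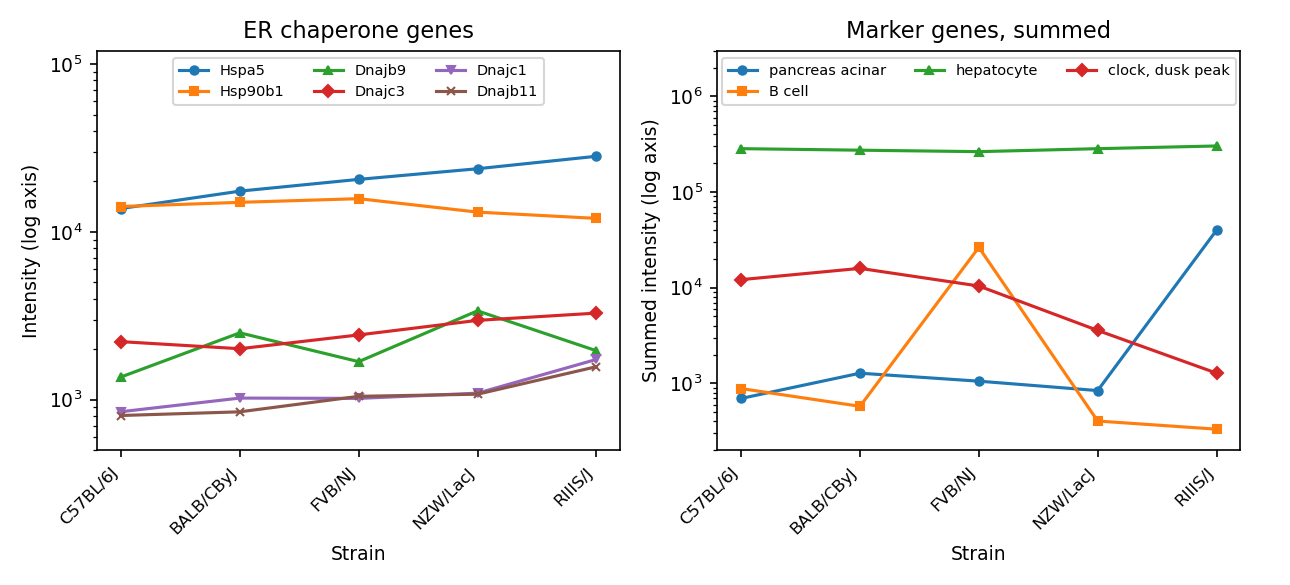
Left, intensity (log axis) of 6 ER chaperone genes in the 5 strains; right, summed intensity (log axis) of marker lists, with lines joining the values of 1 gene or list. Hspa5 goes from 13774 in C57BL/6J to 28211 in RIIIS/J, and the pancreas acinar sum is 39938 in RIIIS/J against 695 to 1277 elsewhere.

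As a set, the 13 ER genes had a median of -0.38 in C57BL/6J, 0.13 in BALB/CByJ, 0.01 in FVB/NJ, -0.02 in NZW/LacJ and 0.20 in RIIIS/J. C57BL/6J was the lowest strain for 6 of 13 and the highest for 0, against 11.5% and 19.4% of all detected genes. It was below the mean of the other strains for 8 of 13, against 49.9% of all detected genes. Without RIIIS/J the C57BL/6J median was -0.14. The other ER folding and unfolded protein response genes, 26 detected of 28 listed, were less spread, with medians from -0.09 in C57BL/6J to 0.14 in NZW/LacJ. Of the 26, 1 was apart, against 12% of all detected genes. That was Creld2, an ER stress target, at 822 in C57BL/6J against 1676 to 2048. The widest ranges among them were those of Ddit3, the stress factor CHOP (56.4 in NZW/LacJ to 183 in FVB/NJ), Manf, a secreted ER stress protein (3579 in C57BL/6J to 10206 in RIIIS/J), and Atf6, an ER stress sensor (209 in NZW/LacJ to 580.3 in BALB/CByJ). Manf had the same order of strains as Hspa5.

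The mitochondrial set was lowest in FVB/NJ and highest in BALB/CByJ. Over 8 detected genes the medians were -0.35 in FVB/NJ, 0.27 in BALB/CByJ, -0.06 in C57BL/6J, -0.10 in NZW/LacJ and 0.04 in RIIIS/J. FVB/NJ was below the mean of the others for 6 of the 8, and for 54.8% of all detected genes. Without FVB/NJ the medians were 0.21 in BALB/CByJ, -0.14 in C57BL/6J and -0.15 in NZW/LacJ. None of the 8 was apart in any strain, against 12% of all detected genes, and over so few genes this count says little. The other mitochondrial chaperone and protease genes had the same 2 strains at the ends, at -0.19 in FVB/NJ and 0.17 in BALB/CByJ over 15 genes. The hepatocyte markers had a median of -0.10 in FVB/NJ, beside the B cell sums given above.

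Hspd1 and Hspe1, which share the stretch printed above, had different orders of strains. Hspd1, the Hsp60 ring subunit, read 11524 in C57BL/6J, 11389.8 in BALB/CByJ, 10548 in FVB/NJ, 7864 in NZW/LacJ and 10568 in RIIIS/J. Hspe1, the Hsp10 lid, read 6809 in C57BL/6J, 11007 in BALB/CByJ, 6980.0 in FVB/NJ, 12741 in NZW/LacJ and 10064 in RIIIS/J. On these probe sets NZW/LacJ was the lowest strain for Hspd1 and the highest for Hspe1. C57BL/6J was highest for Hspd1, nearly level with BALB/CByJ, and lowest for Hspe1, nearly level with FVB/NJ. A second probe set of Hspe1 also had C57BL/6J and FVB/NJ low, at 696 and 698 against 1288 in BALB/CByJ, 1300.2 in NZW/LacJ and 1726 in RIIIS/J. Hspd1 had no second probe set.

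**Figure D5:**
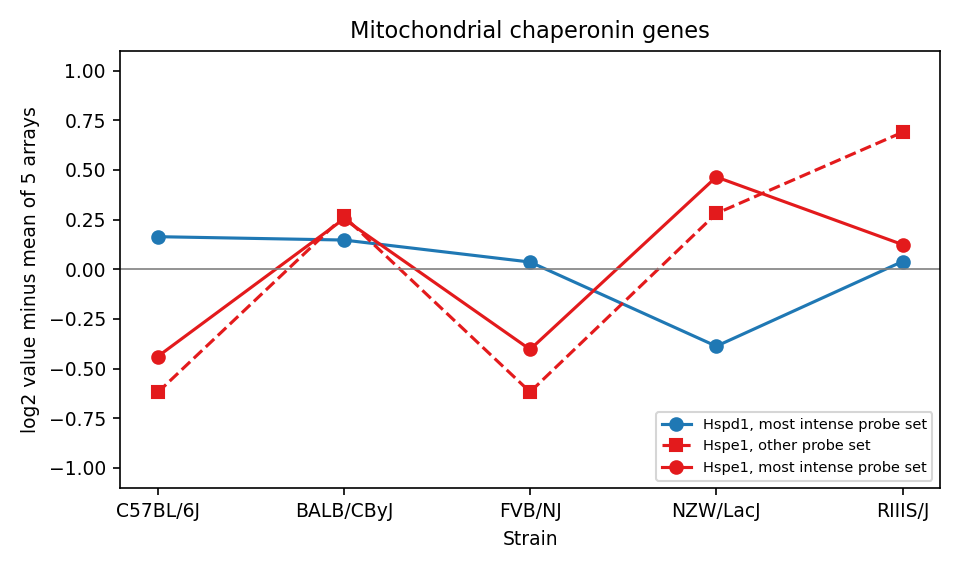
Log2 intensity minus the mean of the 5 arrays for the probe sets of Hspd1 (blue) and Hspe1 (red), with lines joining the values of 1 probe set. Hspd1 is lowest in NZW/LacJ, where both probe sets of Hspe1 are above their mean.

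Hspa9, the mitochondrial Hsp70 that also pulls proteins through the import pore, was low in the same strain as Hspd1. It read 7569 in C57BL/6J, 8275 in BALB/CByJ, 6819.8 in FVB/NJ, 4672 in NZW/LacJ and 5198 in RIIIS/J, and its second probe set kept NZW/LacJ lowest at 2566 against 3173 to 4317. Dnajc15, a J protein of the import motor, read 1355, 1422, 1088, 2016 and 1885, high in NZW/LacJ and RIIIS/J. Dnajc30, a J protein of the inner membrane, was likewise highest in those strains, at 700.4 and 782 against 458 to 533. Dnaja3, the partner of Hspa9 in the matrix, read 1261, 1377, 1044, 1166 and 1229.5. Dnajc28 had the widest range of the set, 2.04-fold, from 48.7 in FVB/NJ to 99.2 in BALB/CByJ, while Dnajc11 varied by 1.35-fold.

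The nucleotide exchange factors of Hspa9 diverged among the strains. Grpel1 read 1787 in C57BL/6J, 2302 in BALB/CByJ, 1785 in FVB/NJ, 2987 in NZW/LacJ and 3352 in RIIIS/J. Grpel2, its stress-linked relative, read 354, 466, 249, 51.7 and 324 in that order and was apart on the low side in NZW/LacJ. Clpx, the unfoldase of the matrix protease ClpXP, read 1404, 1741, 738, 5342 and 4079. Grpel1 and Clpx were high in NZW/LacJ and RIIIS/J, as Dnajc15 and Dnajc30 were. Dusk-phase clock sums were lowest in the same strains, and the part of the clock in these values was not tested. Spg7, a subunit of the inner membrane m-AAA protease, completed the 3 widest ranges of the list besides Grpel2 and Clpx, at 88.3 in NZW/LacJ to 179.6 in BALB/CByJ.

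Among co-chaperones and other genes of the HSF1 system outside the family, 18 of 24 listed genes were detected, with medians from -0.04 in NZW/LacJ to 0.10 in FVB/NJ. Over all detected genes 12% were apart in some strain, and here 1 of 18 was. Cryab, the alpha-B crystallin gene and a small heat shock protein outside the naming rule, was the 1 gene apart and read 25.3 in RIIIS/J against 62.7 to 89.5, the strain in which Hspb1 was lowest too. Bag3, an HSF1 target that partners Hspb8, read 260.4 to 283. Bag4 read 157 in FVB/NJ to 369 in BALB/CByJ, and Fkbp4, an Hsp90 co-chaperone for steroid receptors, read 760 in BALB/CByJ to 1405 in RIIIS/J. The cytosolic chaperonin CCT, an assembly of 8 subunits that folds actin and tubulin, had 0 of 8 genes apart, against 12% of all detected genes. Its widest ranges were those of Cct8 (1330.1 to 2109), Cct3 (1605 to 2302) and Cct6a (5202 to 7422).

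Members outside these compartments included 7 detected genes, and none was apart, against 12% of all detected genes. Dnajc25 had the widest range, 3.0-fold, at 54.7 in C57BL/6J, 90.1 in BALB/CByJ and in NZW/LacJ, 90.0 in FVB/NJ and 165 in RIIIS/J. Dnajc22 was lowest in RIIIS/J at 919 against 1405 to 1909, and a second probe set repeated this at 361 against 522 to 595. Without RIIIS/J the ranges were 1.65-fold for Dnajc25 and 1.36-fold for Dnajc22. Dnajc5, the cysteine string protein of secretory vesicles, read 417, 513, 472, 281 and 289, and 2 further probe sets of similar brightness had NZW/LacJ and RIIIS/J lowest too. Those strains had the lowest dusk-phase clock sums, whose part was not tested. Dnajc13, an endosomal J protein, read 435 in BALB/CByJ, above 289.6 to 318 elsewhere, but on its dimmer probe set BALB/CByJ was the lowest, at 44.3 against 61.8 to 85.9.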

How the data were processed

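The 5 arrays, 1 per strain, each held liver RNA pooled from 3 males per the labels. The deposited values are intensities on a linear scale, made by the authors with GCRMA and GCOS, as named in the submitters' processing notes. Their versions and settings are not given in the sources used here. Values were converted to log2, each gene took its probe set with the highest mean, and any value below the floor (8.48) was set to the floor before computing differences. Probe sets with several gene symbols (3 for this family, all for Dnajc19) were left out, and Hsp90ab1 is not analysed here. Column medians were 8.35 to 8.85. Among the 58 detected members 15 had the identical value on 2 or more arrays. A gene was apart in a strain at 2-fold or more from the nearest other strain.

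Compartment lists, other lists and markers were written from general knowledge, and the members and lists were chosen with earlier results of these data known. The naming rule gave full values to members apart in a strain, to the 5 of each compartment with the highest mean and the 5 with the widest range, to the heat-inducible genes, and to the 3 widest genes of each other list. Other members named with values and the markers singled out were chosen after their values were seen. The step that calls genes apart was tested on simulated data with known changes and little noise. That test does not cover the error of real arrays, the list medians or the motif search. Motifs were searched on both strands, and 13 members had no promoter window. The number of arrays limits the precision, and effects of strain sequence differences on probe binding were not tested. Alternatives are given in the closing section. Python 3.11.15, numpy 2.4.6, pandas 2.3.3 and matplotlib 3.10.9 were used.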

Additional observations from a re-analysis of the deposited data

How the results depend on the processing

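Of 232 list medians under other settings 29 moved by over 0.1 log2, a tolerance chosen after seeing the data, and 35 had the other sign. The sign turned from a median beyond 0.1 in 3 of these. They were the ER median of BALB/CByJ (-0.046) and the mitochondrial median of NZW/LacJ (0.023) with all probe sets of a gene averaged, and the cytosolic median of NZW/LacJ (0.0020) without FVB/NJ and RIIIS/J. The 7 genes apart became 1 (Hspa1b) at a 4-fold threshold, with 0 in FVB/NJ, 0 in NZW/LacJ and 1 in RIIIS/J, and 17 at 1.5-fold, with 3 in C57BL/6J, 1 in BALB/CByJ, 7 in FVB/NJ, 2 in NZW/LacJ and 6 in RIIIS/J. Leaving out 1 array gave 4 (without FVB/NJ) to 8 genes apart, 0 to 1 in C57BL/6J (Hsph1 without NZW/LacJ, Hspa1b without RIIIS/J), and 12 (without C57BL/6J) to 17 genes with a 2-fold range. The ER median of C57BL/6J was -0.44 to -0.14 in these settings, the smallest without RIIIS/J. With all probe sets of a gene averaged it was -0.16, 12 genes had a 2-fold range, and Dnajb14 and Dnajc24 were no longer apart. In that setting the medians were 0.028 for all members and 0.17 for mitochondrial genes in BALB/CByJ, 0.12 for cytosolic genes in FVB/NJ and 0.094 for ER genes in RIIIS/J. Centring the arrays gave -0.078 for all members, 0.21 for cytosolic, -0.11 for ER and -0.47 for mitochondrial genes in FVB/NJ, and 0.31 for ER and 0.15 for mitochondrial genes in RIIIS/J. Quantile normalization gave -0.12 for ER genes in FVB/NJ, and either scaling left Dnajc9 no longer apart. Against the median of the other strains the ER median was -0.28 in C57BL/6J and 0.10 in NZW/LacJ. Leaving out 1 array gave cytosolic medians of 0.047 to 0.25 in BALB/CByJ and -0.29 to -0.057 in NZW/LacJ, ER medians of -0.15 to 0.039 in FVB/NJ and -0.11 to 0.19 in NZW/LacJ, mitochondrial medians of -0.14 to 0.044 in C57BL/6J and -0.021 to 0.17 in RIIIS/J, and medians of all members of -0.19 to -0.055 in NZW/LacJ. A floor at the 99th percentile (28.0) left 0 genes apart in NZW/LacJ, since the value of Hspb6 there lies under it. Removing probe sets that can bind several transcripts (suffix _s, _x or _a) put 1 gene apart in BALB/CByJ (Hspa8, on a dim probe set). In the same setting Hspb1, which has no other kind of probe set, dropped out, and Dnajc24 was no longer apart. Leaving out FVB/NJ and RIIIS/J together, a setting chosen after seeing the data, gave 2 genes apart, 1 of them in C57BL/6J, 5 with a 2-fold range, ER medians of 0.23 in NZW/LacJ and -0.17 in C57BL/6J, a mitochondrial median of -0.18 in C57BL/6J and a cytosolic median of 0.28 in BALB/CByJ. With fewer arrays a range can only shrink and a gap to the nearest strain can only grow, by construction. Signals near the floor, such as those of Hspa1a, Hspa2 and Dnajc6, have no reliable order. No paired analysis was possible because 1 array per strain leaves no pairs.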
